A study of Mus musculus with 4 samples.

Results

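The genes of retinoic acid synthesis, binding, degradation and reception were followed through the hair cells (HCs) and other epithelial cells of the newborn mouse ear. They were 9 genes, *Aldh1a1*, *Aldh1a2*, *Aldh1a3*, *Crabp1*, *Crabp2*, *Cyp26b1*, *Rara*, *Rarb* and *Rarg*, found by exact match of the gene symbol. All 9 had a row among the 12814 genes of the deposited table. In the epithelial cells other than HCs each of them differed at least 3-fold between the organs, as did 15.7% of all genes. The 3 synthesizing enzymes and the 3 receptors were higher on the vestibular side. The binding proteins *Crabp1* and *Crabp2* and the degrading enzyme *Cyp26b1* were higher on the cochlear side. With a floor of 50, a pseudocount of 20 or a correction for length and GC content 4 genes in place of 6 were at least 3-fold higher on the vestibular side, the genes lost being receptors each time, and with a pseudocount of 100 the counts were 3 on the vestibular and 2 on the cochlear side.

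RNA had been sequenced from 4 sorted populations, namely cochlear HCs, cochlear epithelial non-sensory cells (ENSCs, the name in the sample labels), vestibular HCs and vestibular ENSCs. The mice were newborn, untreated and of the C57BL/6 strain, with the transgene *Atoh1/nGFP* in every group and no other allele named. Their HCs carry a nuclear green fluorescent protein under control of an *Atoh1* enhancer. HCs were the cells with both the fluorescent protein and the epithelial surface protein CD326, and ENSCs carried CD326 without the fluorescent protein, so that ENSCs hold supporting cells and other epithelial cells together. Inner ears of several mice were pooled for a sample, and each population had 1 column of values, called a library here. The authors' legend to a figure with microarray and RNA sequencing panels speaks of biological replicates, without stating whether a column merged several. Genes with few reads had been left out by the authors, so a gene without a row may have been low.

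With 1 column per population no replicate spread could be measured, so none of the differences below has an error or a p-value, and a fold of 3 marks a difference as large. Values are quantile-normalized read counts per gene, called signals here, with a floor of 20. The column sums were equal by construction, so sequencing depth is unknown. The lowest signals of 3 libraries were ordered by the normalization and not by reads, up to a signal of 24.25 in cochlear HCs, 22.75 in cochlear ENSCs and 30.5 in vestibular HCs. In vestibular ENSCs only the floor of 20 itself was affected. Within these tied ranges a signal says only that the gene was low, and a fold against it is given as a lower bound from the top of the range. In such bulk samples fewer cells of a type and less RNA per cell cannot be told apart.

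All 10 HC markers examined, among them *Atoh1*, *Pou4f3* and *Myo7a*, were at least 3-fold higher in HCs of each organ. Of the 10, 8 were at the floor in vestibular ENSCs and 5 were inside the tied range in cochlear ENSCs. The epithelial marker *Epcam*, which encodes CD326, had signals of 1016.75 and 3376.25 in cochlear HCs and ENSCs and of 1139.25 and 7511 in the vestibular pair. Blood and macrophage markers were almost missing, with 1 of 10 in the table (*Cd68*, at most 24.75).

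Retinoic acid is made from vitamin A within tissues. Retinol is first oxidized to retinaldehyde, and the retinaldehyde dehydrogenases encoded by the *Aldh1a* genes turn it into retinoic acid. Cellular retinoic acid binding proteins carry it in the cytosol, CYP26 enzymes break it down, and it acts in the nucleus through the receptors RARα, RARβ and RARγ. These bind DNA with retinoid X receptors at paired half-sites, and *Rarb* itself is a classical target gene. In the ear the pathway is known for its part in patterning the otic vesicle and the zones of the vestibular sensory patches.

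A direct repeat of 2 half-sites with 5 bases between them (DR5) is the response element best known for *Rarb*. RefSeq promoter windows, from 250 bases before to 50 bases after a start site in GRCm38.p6, were searched on each strand for 2 half-sites in the same orientation. The half-sites allowed were AGGTCA, then AGTTCA, further GGGTCA and finally GGTTCA, and the spacing was 5, 2 or 1. Of the 9 genes 7 had windows, 12 in all, and *Aldh1a3* and *Crabp2* had none. A DR5 was found in 32 of 32851 windows of all genes (0.0974%), and 1 of these was that of *Rarb*. The shares for spacings of 2 and 1 were 0.268% and 0.222%, and no window of the 9 genes held either. Only these letters in these windows were searched.

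The 250 bases upstream of 4 genes are printed 5′ to 3′, because *Rarb* carries the repeat and because *Aldh1a1*, *Aldh1a2* and *Crabp1* were among the genes furthest apart between the organs. Capitals mark the half-sites of the repeat, which ran from 53 to 37 bases before the start site of *Rarb*. That window lies at chr14:16575477-16575726 on the minus strand of GRCm38.p6, and the same letters stand at chr14:17407991-17408240 in mm9, inside the annotated gene. The others are on the plus strand, at chr19:20601718-20601967, chr9:71215539-71215788 and chr9:54764498-54764747 of GRCm38.p6. The start sites of *Aldh1a2* and *Crabp1* used here are also the first bases of these genes in the mm9 annotation.
Rarb: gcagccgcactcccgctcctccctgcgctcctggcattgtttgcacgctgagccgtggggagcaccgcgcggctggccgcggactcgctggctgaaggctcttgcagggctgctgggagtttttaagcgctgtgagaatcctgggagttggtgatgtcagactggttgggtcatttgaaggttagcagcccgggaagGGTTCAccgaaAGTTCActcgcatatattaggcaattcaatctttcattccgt
Aldh1a1: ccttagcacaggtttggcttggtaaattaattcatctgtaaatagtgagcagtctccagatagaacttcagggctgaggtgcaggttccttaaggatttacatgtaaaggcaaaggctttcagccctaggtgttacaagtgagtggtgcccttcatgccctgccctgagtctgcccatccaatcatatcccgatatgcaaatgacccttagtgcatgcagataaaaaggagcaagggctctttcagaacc
Aldh1a2: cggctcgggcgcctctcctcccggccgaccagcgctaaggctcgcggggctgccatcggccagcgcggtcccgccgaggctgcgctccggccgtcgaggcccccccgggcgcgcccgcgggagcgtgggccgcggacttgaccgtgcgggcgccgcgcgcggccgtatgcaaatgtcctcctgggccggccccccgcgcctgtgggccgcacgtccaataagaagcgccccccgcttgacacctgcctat
Crabp1: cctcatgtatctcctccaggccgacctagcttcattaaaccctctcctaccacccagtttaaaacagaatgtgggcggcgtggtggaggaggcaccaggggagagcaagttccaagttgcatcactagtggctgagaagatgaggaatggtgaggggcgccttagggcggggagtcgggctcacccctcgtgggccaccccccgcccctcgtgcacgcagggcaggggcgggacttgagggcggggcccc

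The upstream sequences of *Aldh1a1* and *Aldh1a2* were unlike in base composition. The printed one of *Aldh1a1* held 1 CpG and 46.4% G and C, and 7.87% of windows had fewer CpGs. Another window of this gene, not printed, held 3 CpGs and 42.8% G and C, and 29.0% of windows had fewer CpGs. The sequence of *Aldh1a2* held 40 CpGs and 77.6% G and C, and 98.7% of windows had fewer CpGs. The window of *Crabp1* had 12 and that of *Rarb* 16, against a median of 6 over all windows.

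**Figure D1:**
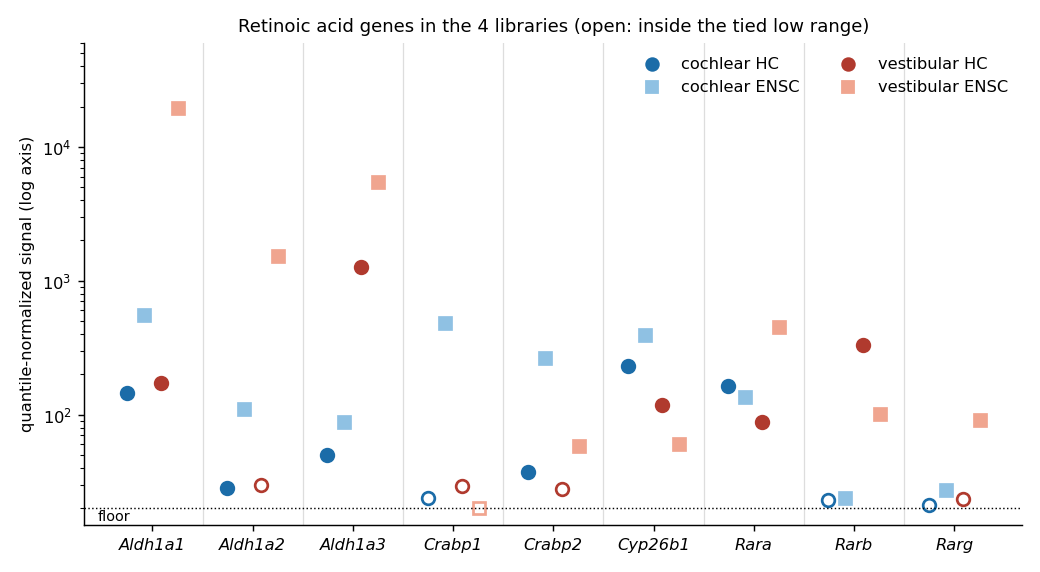
Signals of the 9 genes in the 4 libraries on a log axis, with circles for HCs, squares for ENSCs, blue for the cochlea and red for the vestibular system. Each point is 1 column of the table, open symbols lie inside the tied low range and the dotted line is the floor of 20, and the highest point of all is *Aldh1a1* in vestibular ENSCs at 19506.5.

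*Aldh1a1* (ENSMUSG00000053279, chromosome 19, 20676451 to 20717952 in mm9, plus strand, 13 exon blocks) had signals of 144.25 in cochlear HCs, 551 in cochlear ENSCs, 172.5 in vestibular HCs and 19506.5 in vestibular ENSCs. The vestibular ENSC library stood apart from the rest, and there the gene was above 99.9% of all genes. It was 35.4-fold higher in vestibular than in cochlear ENSCs, and the HC libraries were close to each other (1.2-fold). Within the organs it was lower in HCs, 113-fold in the vestibular system and 3.82-fold in the cochlea, where a pseudocount of 100 ended the 3-fold difference (log2 ratio -1.41). The vestibular ratio ranked 4 from the lowest of all genes.

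A neighbour on the same chromosome, *Aldh1a7*, is a close copy of *Aldh1a1*. Of the 2004 stretches of 50 bases in the *Aldh1a1* transcripts 151 (7.53%) also occurred in *Aldh1a7*, so some reads could belong to either gene. The signals of *Aldh1a7* were 21.75, 38, 24.25 and 109.75 in the same order of libraries, with the HC values inside tied ranges. Only transcripts of protein-coding genes were searched. Among them no other gene of the 9 shared such stretches except *Rara*, with 12 of 4480, found across 227 other genes.

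*Aldh1a2* (ENSMUSG00000013584, chromosome 9, 71063596 to 71144050, plus strand), the main retinoic acid source of many embryonic tissues, followed the same order. Its signals were 28.5 in cochlear HCs, 110.25 in cochlear ENSCs, 29.75 in vestibular HCs and 1538 in vestibular ENSCs. It was close to the floor in HCs of both organs and high in 1 library only. The vestibular to cochlear ENSC ratio was 14-fold. HCs were at least 50.4-fold lower than ENSCs in the vestibular system and 3.87-fold lower in the cochlea, where a floor of 50 ended the 3-fold difference (log2 ratio -1.14).

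*Aldh1a3* (ENSMUSG00000015134, chromosome 7, 73535778 to 73572403, minus strand) differed from its relatives in HCs. It had signals of 50.25 and 87.5 in cochlear HCs and ENSCs and of 1266.75 and 5457 in vestibular HCs and ENSCs. Here the split was by organ, with vestibular signals high in HCs as well. The vestibular signal was 62.4-fold higher in ENSCs, the fifth largest difference of all genes in that direction, and 25.2-fold higher in HCs, where its cochlear to vestibular ratio ranked 22nd from the lowest. Vestibular HCs were 4.31-fold below vestibular ENSCs, and the cochlear ratio was 1.74-fold.

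Per kb of exonic length, which allows a comparison between genes, the 3 enzymes together reached 11400 in vestibular ENSCs, 372 in vestibular HCs, 336 in cochlear ENSCs and 93.7 in cochlear HCs. The sum was 33.8-fold higher in vestibular than in cochlear ENSCs. *Aldh1a1* made up 83.6% of it in vestibular ENSCs, 79.9% in cochlear ENSCs and 75% in cochlear HCs. In vestibular HCs *Aldh1a3* led instead, with 73.9% of the sum, and *Aldh1a1* had 22.6%. The leading enzyme in vestibular HCs was thus another than in vestibular ENSCs.

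**Figure D2:**
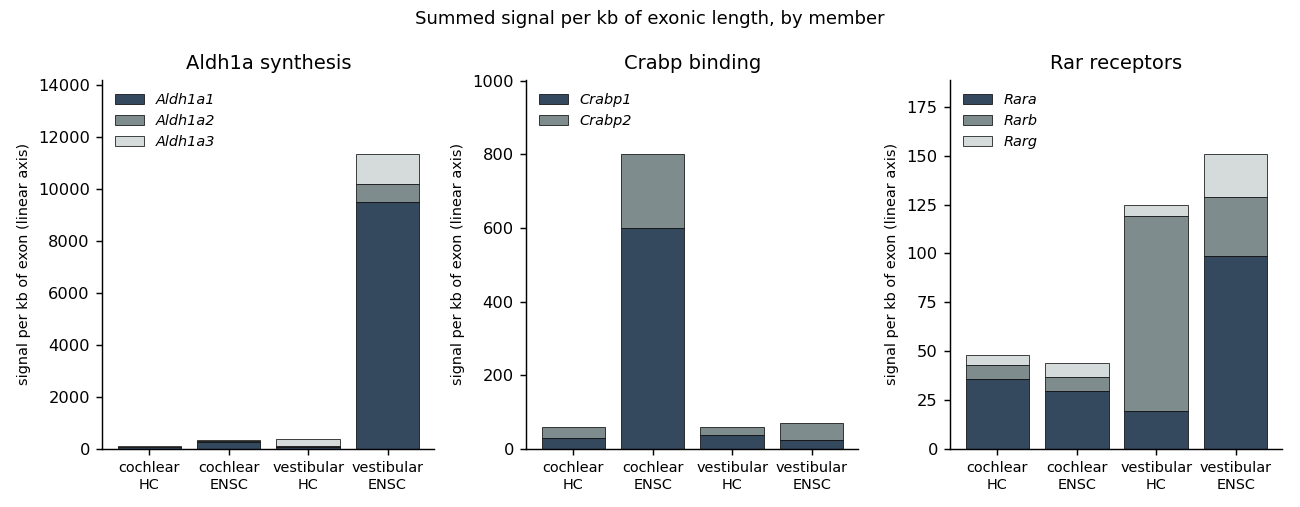
Signal per kb of exonic length, summed over the *Aldh1a* genes, the *Crabp* genes and the receptors in each library, on linear axes that differ between panels and start at 0. Shading gives each member's part: *Aldh1a1* fills 83.6% of the tallest *Aldh1a* bar, *Crabp1* 74.9% of the tallest *Crabp* bar, and *Rarb* 80% of the receptor bar of vestibular HCs.

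The binding proteins went the other way. *Crabp1* (ENSMUSG00000032291, chromosome 9, 54612555 to 54620917, plus strand) had a signal of 482.25 in cochlear ENSCs, against 24 in cochlear HCs, 29.25 in vestibular HCs and 20 in vestibular ENSCs. All but the first of these lay inside tied ranges, so that the gene was measured above the low range in 1 library only. Cochlear ENSCs were at least 24.1-fold above vestibular ENSCs and at least 19.9-fold above cochlear HCs. Its HC to ENSC ratio in the cochlea, a bound, ranked 68th from the lowest as deposited.

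*Crabp2* (ENSMUSG00000004885, chromosome 3, 87752588 to 87757298, plus strand), whose product hands retinoic acid on to the receptors in the nucleus, was also highest in cochlear ENSCs. It had 37 in cochlear HCs, 266 in cochlear ENSCs, 28 in vestibular HCs (inside the tied range) and 58.5 in vestibular ENSCs. Cochlear ENSCs were 7.19-fold above cochlear HCs and 4.55-fold above vestibular ENSCs. Vestibular HCs were at least 1.92-fold below vestibular ENSCs. With a floor of 100 the ENSC and the cochlear HC to ENSC log2 ratios came to 1.41 and -1.41, under 3-fold.

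*Cyp26b1* (ENSMUSG00000063415, chromosome 6, 84521938 to 84543740, minus strand) encodes the enzyme that clears retinoic acid. Its signals were 230.75 in cochlear HCs, 391 in cochlear ENSCs, 117.75 in vestibular HCs and 60 in vestibular ENSCs, so that both cochlear libraries were above both vestibular ones. The library in which it was lowest was the one in which the *Aldh1a* genes were highest. Cochlear ENSCs were 6.52-fold above vestibular ENSCs, and the HC libraries differed 1.96-fold in the same direction. Within the organs the ratio as deposited did not reach 3-fold: HCs were 1.69-fold lower in the cochlea and 1.96-fold higher in the vestibular system. With the correction for length and GC content the vestibular log2 ratio was 1.96, past 3-fold. The related genes *Cyp26a1* and *Cyp26c1* had no row in the table.

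The receptors had separate patterns. *Rara* (ENSMUSG00000037992, chromosome 11, 98789132 to 98836256, plus strand) had signals of 164.25 in cochlear HCs, 136 in cochlear ENSCs, 88.75 in vestibular HCs and 450.5 in vestibular ENSCs. The cochlear libraries were alike (1.21-fold), and vestibular ENSCs were 5.08-fold above vestibular HCs and 3.31-fold above cochlear ENSCs. *Rara* is rich in G and C (60.9% of its exonic bases). After correction for exonic length and GC content the log2 ratios were -1.04 for vestibular HCs against ENSCs and -0.79 between the ENSCs, under 3-fold.

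*Rarb* (ENSMUSG00000017491, chromosome 14, 17263356 to 17651381, minus strand), the receptor gene with the DR5 repeat, was the only one of the 9 with its highest signal in vestibular HCs. It had 23 in cochlear HCs (inside the tied range), 24 in cochlear ENSCs, 330.75 in vestibular HCs and 100.75 in vestibular ENSCs. The cochlear libraries were near the floor and the vestibular ones above it. Vestibular HCs were at least 13.6-fold above cochlear HCs, the 39th lowest cochlear to vestibular ratio as deposited. They were 3.28-fold above vestibular ENSCs, which in turn were 4.2-fold above cochlear ENSCs. A pseudocount of 20 took the vestibular HC to ENSC log2 ratio to 1.54 and the ENSC one to -1.46, both under 3-fold.

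*Rarg* (ENSMUSG00000001288, chromosome 15, 102065369 to 102087948, minus strand) had the lowest maximum of the 9. Its signals were 21 and 23.25 in cochlear and vestibular HCs, both inside tied ranges, 27.5 in cochlear ENSCs and 90.75 in vestibular ENSCs. The ENSC libraries differed 3.3-fold, and vestibular HCs were at least 2.98-fold below vestibular ENSCs. With a floor of 50 both log2 ratios were -0.86, under 3-fold.

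Per kb, the receptors summed to 48 in cochlear HCs, 43.7 in cochlear ENSCs, 126 in vestibular HCs and 151 in vestibular ENSCs. *Rara* led with 74.8%, 68% and 65.2% in cochlear HCs, cochlear ENSCs and vestibular ENSCs. *Rarb* led in vestibular HCs with 80% of the sum. The receptor that led therefore changed in the same library in which *Aldh1a3* replaced *Aldh1a1* as the leading enzyme.

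**Figure D3:**
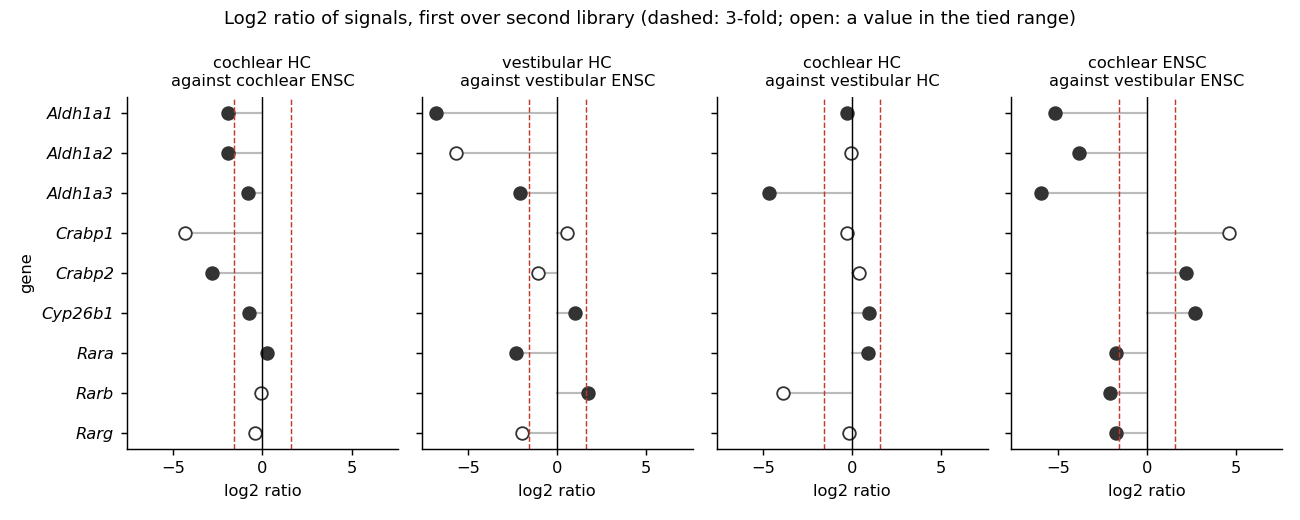
Log2 ratios of the signals of the 9 genes in the 4 comparisons, first over second library, with dashed lines at 3-fold and open circles where a signal inside a tied range is involved. In the ENSC panel all 9 points lie beyond the dashed lines, from -5.96 for *Aldh1a3* to 4.59 for *Crabp1*.

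The comparison of the ENSC populations asked how the epithelium differs between the organs. Of the 9 genes 6 were at least 3-fold lower and 3 at least 3-fold higher in cochlear ENSCs, while 7.94% and 7.80% of all genes were. The genes were chosen with earlier results of these data known, so the count is a description. The median log2 ratio of the 9 was -1.73, that of all genes 0. With length and GC correction *Rara* and *Rarg* were no longer past 3-fold and the counts were 4 lower and 3 higher, against 5.31% and 6.99% of all genes. The lowest ratio was that of *Aldh1a3* (log2 ratio -5.96), followed by *Aldh1a1* (-5.15) and *Aldh1a2* (-3.80). *Crabp1* had the 27th highest ratio of all genes as deposited, which is a bound because its vestibular signal was at the floor.

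Markers of other cell types moved with this comparison. Of 6 genes of dark cells and the stria vascularis, epithelia that secrete potassium, 4 were at least 3-fold higher in vestibular ENSCs, among them *Nox3* (2604 against 34.25) and *Kcne1* (670.5 against 139.25), while *Slc12a2* was higher in the cochlea and the summed signals were 15377.25 and 15819.75. Of 6 epithelial genes 4 were at least 3-fold higher in vestibular ENSCs (sums 24838 and 10496). Of 6 endothelial markers only *Kdr* had a row, at 1461.75 against 29. Of 9 mesenchymal genes 3 were at least 3-fold higher in cochlear and 2 in vestibular ENSCs, with sums of 17338.5 and 2714. The largest of these was *Lum*, with 12731.25 in cochlear and 413.75 in vestibular ENSCs, whereas *Prrx1* and *Tbx18* were at the floor in cochlear ENSCs and *Twist1*, *Pou3f4* and *Pdgfrb* had no row. Of 16 supporting cell genes 6 were at least 3-fold higher and 1 lower in cochlear ENSCs (sums 108948.25 and 30094.25). *Sox10*, from a list for neurons and glia, had 202.5 in cochlear and 1183 in vestibular ENSCs. The part of such cells in the difference of the retinoic acid genes was not tested.

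HCs were compared with ENSCs within each organ to find the side on which the genes are used. In the cochlea 4 of the 9 (*Aldh1a1*, *Aldh1a2*, *Crabp1* and *Crabp2*) were at least 3-fold lower in HCs and none higher, against 9.20% and 8.39% of all genes (17.6% either way). The median log2 ratio was -0.80. In the vestibular system 5 were at least 3-fold lower in HCs, namely the *Aldh1a* genes, *Rara* and *Rarg*, against 14.3% of all genes. The call of *Rarg* was lost when the tied range was set to its top (log2 ratio -1.57). *Rarb* was the 1 gene at least 3-fold higher, against 13.8% of all genes (28.1% either way), and the median log2 ratio was -1.96. After length and GC correction 3 were lower (the *Aldh1a* genes) and 3 higher, against 10% and 14.7% of all genes, with *Crabp1* at 1.91, although both its vestibular signals were inside tied ranges, and *Cyp26b1* at 1.96. Of the 9 mesenchymal markers, 4 (cochlea) and 6 (vestibular organs) likewise fell 3-fold or more short of ENSCs in the HC library, whereas *Pdgfra* was higher in HCs on both sides, and the sums were 1549.5 against 17338.5 and 440.25 against 2714. Of the 6 epithelial genes 4 were lower to this extent in the cochlea and 6 in the vestibular organs, of the 6 dark cell and stria genes 2 and 5, and of 16 supporting cell genes 5 and 4. The supporting cell list had no common direction in the vestibular organs, where 8 genes were higher and 7 lower in HCs and *Sox2* was at least 3-fold higher (3960.75 against 465.75). From the list of neurons and glia *Sox10* (45 against 202.5 and 45.75 against 1183) and *Erbb3* (267.75 against 1526.5 and 322.5 against 2114.5) were lower in the HCs of each organ (cochlea first). Of the 6 genes of that list 3, *Nefl*, *Nefm* and *Snap25*, were at least 3-fold higher there. Their vestibular log2 ratios (6.95, 6.73 and 6.71) were close to that of the HC marker *Pou4f3* (6.96). Whether the genes of that list stood for neurons or glia here was not tested. Endothelial *Kdr* had 29.75 against 1461.75 in the vestibular pair. The part of such cells in these differences was not tested.

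Of the retinoic acid genes 2 were at least 3-fold apart between the HC libraries, *Aldh1a3* and *Rarb*, both lower in cochlear HCs. Among all genes 5.09% were lower to this extent and 4.21% higher, 9.30% in all. *Cyp26b1* and *Rara* were 1.96-fold and 1.85-fold higher in cochlear HCs, *Crabp2* was at least 1.21-fold higher there, and *Aldh1a1* was 1.2-fold lower. No direction could be given for *Aldh1a2*, *Crabp1* and *Rarg*, which were low in both HC libraries. The median log2 ratio of the 9 was -0.15. Of the 16 supporting cell genes 7 were higher and 9 lower in cochlear HCs, with 5 at least 3-fold higher, among them *Gata3* (3920.5 against 30.5), and none at least 3-fold lower. The sums of that list were 19966.25 and 18372.5. Of the 9 mesenchymal genes 3 were higher and 5 lower, with *Lum* (728.25 against 30.5) and *Dcn* (181.5 against 30.5) past 3-fold. Of the 6 epithelial genes 2 were higher, with *Cdh1* (6003 against 178.5) past 3-fold, and 4 lower. Of the 6 dark cell and stria genes 1 was higher and 5 lower, and all 6 genes of neurons and glia were lower. None of these 2 lists was past 3-fold. The part of such cells in the HC difference was not tested. The organs thus differed in more of the 9 genes in the ENSCs than in the HCs, a difference of counts that was not tested.

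**Figure D4:**
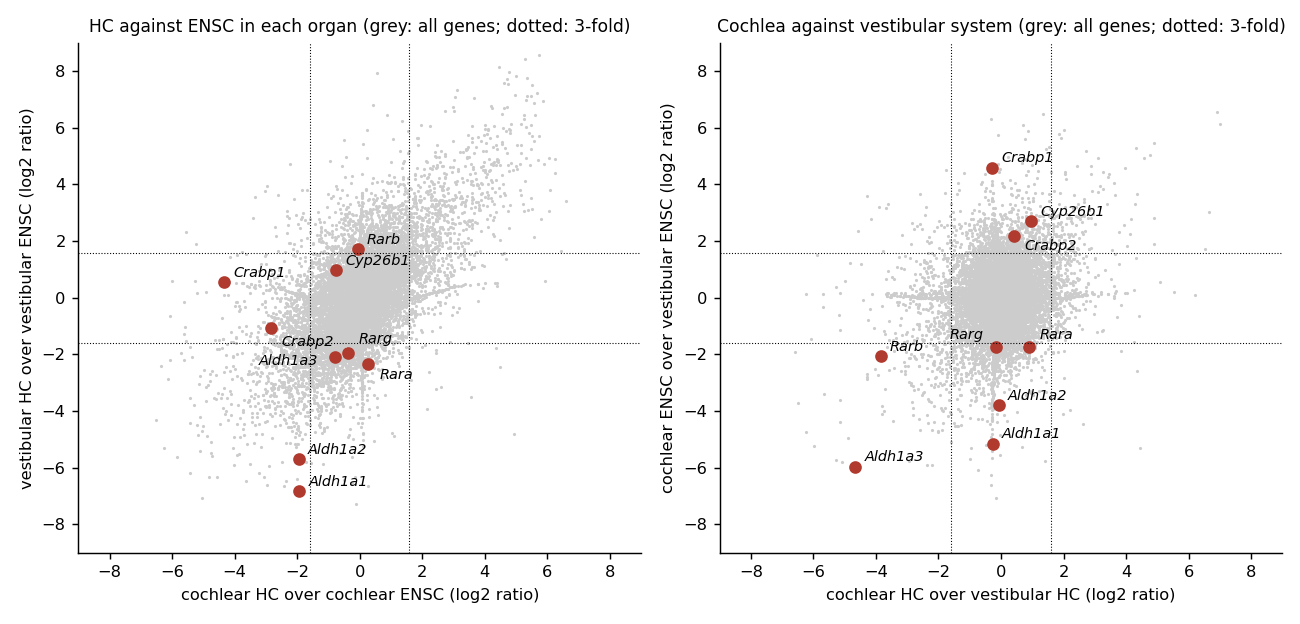
Log2 ratios of HC over ENSC signals in the cochlea and the vestibular system (left) and of cochlear over vestibular signals in HCs and ENSCs (right), with all 12814 genes in grey and the 9 genes in red. *Aldh1a3* and *Rarb* are the points far to the left in the right panel (log2 ratios -4.66 and -3.85), and *Aldh1a1* and *Aldh1a2* are the lowest of the 9 in the left one.

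Subtracting the cochlear log2 ratio of HCs to ENSCs from the vestibular one showed where the organs departed from each other. It was -4.89 for *Aldh1a1* and -3.74 for *Aldh1a2*, which were lower in HCs of both organs and far more so in the vestibular system. For *Rara* it was -2.62, for *Aldh1a3* -1.31 and for *Cyp26b1* 1.73. *Crabp1* had 4.88, *Crabp2* and *Rarb* 1.78 each, and *Rarg* -1.58. Like that of *Aldh1a2*, these last 4 differences rest on at least 1 signal inside a tied range and are the values as deposited, not measured sizes.

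Genes with like patterns were sought among the 6727 genes that code for proteins and reached 200 in any library. Likeness was the root mean square difference of the log2 signals over the 4 libraries after centring each gene, so 0 would be the same shape. The nearest to *Aldh1a1* were *Ntn1* (0.14), *Col14a1* (0.25) and *Igfbp2* (0.43), and among those nearest to *Aldh1a2* were *Krt18* (0.19) and *Igfbp2* (0.22). *Krt18* encodes a keratin of simple epithelia, with 146.5, 581, 172.5 and 6188.75 in cochlear HCs, cochlear ENSCs, vestibular HCs and vestibular ENSCs. *Aldh1a3* had no close match, and the first were *Rpl41* (0.61) and *Meis2* (0.85).

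For *Crabp2* the nearest was *Prrg1* (0.02), and for *Cyp26b1* *Mnat1* (0.04). *Slc48a1* was nearest to *Rara* (0.08). *Rarb* was most like *Dlx1* (0.12), a homeobox gene with 23, 22, 351.75 and 86.25 in the same order, followed by *Sphkap* (0.17) and *Stmn1* (0.25). The closest genes to *Crabp1*, *A930003A15Rik* and *Nr2e1* (0.01 each), were also inside tied ranges in 3 libraries, so their likeness says only that they were high in cochlear ENSCs alone. With 4 points per gene such likeness is a description.

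The rest of the pathway was followed through a list of 79 other genes for vitamin A transport, its oxidation, related dehydrogenases, partner receptors, receptor co-regulators and response genes, of which 49 were in the table. Between the ENSCs 8 (16.3%) were at least 3-fold lower and 4 (8.16%) higher in the cochlea, with a median log2 ratio of -0.52. In vestibular HCs 7 (14.3%) were at least 3-fold lower than in ENSCs and 3 (6.12%) higher (median -0.66), and in the cochlea 7 (14.3%) and 2 (4.08%) (median -0.14). Between the HCs 5 (10.2%) were lower in the cochlea and 3 (6.12%) higher (median 0). Among all genes the shares of lower and higher genes were 7.94% and 7.80% between the ENSCs, 14.3% and 13.8% in the vestibular system, 9.20% and 8.39% in the cochlea, and 5.09% and 4.21% between the HCs.

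Genes of retinol oxidation and transport, the steps before the *Aldh1a* enzymes, were measured as well. *Rdh10*, the main retinol dehydrogenase of embryos, had 807.75 and 1208.75 in cochlear HCs and ENSCs and 2356.5 and 5608.25 in vestibular HCs and ENSCs, with a log2 ratio of -2.21 between the ENSCs, so that both vestibular libraries were above both cochlear ones, as for *Aldh1a3*. *Ttr*, whose product carries retinol binding protein in blood, was at 204.75 in cochlear and 490 in vestibular ENSCs, and HCs were lower (at least 8.44-fold in cochlear and 16.1-fold in vestibular HCs, their signals being inside tied ranges).

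*Rdh12* and *Rdh14* were distributed otherwise than *Rdh10*. *Rdh12*, known from photoreceptors, reached 258.25 in HCs of the cochlea, with 180.5 in those of the vestibular system, and lay inside the tied ranges in both ENSC libraries, so its HC excess came to 11.4-fold or more in the cochlea and to 9.03-fold or more in the other organ. *Rdh14* had 417.75, 249.75, 215 and 42.5 in cochlear HCs, cochlear ENSCs, vestibular HCs and vestibular ENSCs. It was low in vestibular ENSCs, with log2 ratios of 2.34 for vestibular HCs against ENSCs and 2.55 between the ENSCs. *Aldh3a2*, a fatty aldehyde dehydrogenase, was lower in both HC libraries than in their ENSCs, the cochlear log2 ratio being -2.27 and the vestibular one -2.07.

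The genes of the partner receptors RXRα and RXRβ differed less than 3-fold in every comparison. *Rxra* had 228.25 and 172 in cochlear HCs and ENSCs and 142.25 and 297 in the vestibular pair. *Rxrg* was at most 50. The orphan receptors *Nr2f1* and *Nr2f2*, which can bind the same kind of repeats, were higher in both cochlear libraries. *Nr2f1* had 12911.5 and 13361.5 in cochlear HCs and ENSCs and 1499.25 and 999.5 in vestibular ones, and *Nr2f2* 1961.5 and 3978.5 against 66 and 89.5. *Rorb*, with 600 in cochlear HCs and 254.5 in cochlear ENSCs, was inside the tied or floor range in both vestibular libraries.

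Of the 11 response genes with a row, 2 (18.2%) passed 3-fold between the organs in HCs and 2 (18.2%) in ENSCs, against 9.30% and 15.7% of all genes. In each case they were *Meis1* and *Meis2*, homeobox genes that retinoic acid is known to induce, which were higher in the vestibular libraries. *Meis2* had 43.25 and 223 in cochlear HCs and ENSCs and 1549.5 and 2747.5 in vestibular ones, and the log2 ratios of cochlear over vestibular signals were -5.16 in HCs and -3.62 in ENSCs. *Meis1* had log2 ratios of -3.84 and -2.07. *Rai14* was lower in cochlear HCs than in ENSCs (log2 ratio -4.11), and its signal was 529.5 in cochlear against 259 in vestibular ENSCs. *Dhrs3*, named after its values were seen, reduces retinaldehyde back to retinol and is itself induced by retinoic acid. It belongs to the oxidoreductases of the list and had 22.5 (inside the tied range) and 35.25 in the cochlear and 84 and 199.75 in the vestibular pair.

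**Figure D5:**
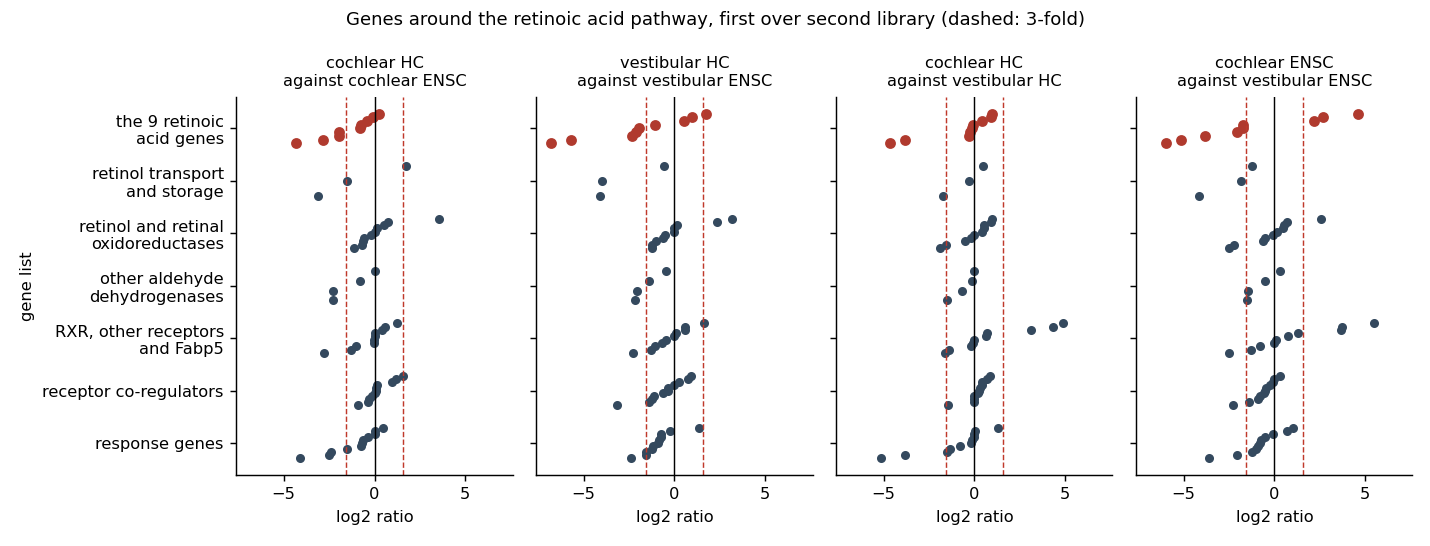
Log2 ratios in the 4 comparisons for the 9 retinoic acid genes (red) and the 49 further genes of the pathway by role (dark), 1 point per gene, with dashed lines at 3-fold. The points furthest right in both organ panels are *Nr2f2* at 4.89 and 5.47.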

How the data were processed

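RNA from HCs and ENSCs of newborn *Atoh1/nGFP* mice, sorted from pooled inner ears, had been amplified (NuGEN Ovation) and sequenced. The authors aligned the first 50 bases of the reads to mm9 with TopHat, counted reads per gene with HTSeq and quantile-normalized the columns. The deposited values are therefore a normalized signal per gene, not counts and not per length, with a floor of 20. Quantile normalization gives each column the same total (7830343), so a shift of all genes in 1 library cannot be seen.

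From these signals log2 ratios without pseudocount were computed for 12814 genes in 4 comparisons, with 3-fold as the threshold. No replicate columns were at hand (1 per population), so no test was run. Exonic lengths came from GENCODE vM1, and 12799 genes were matched. Promoter sequences came from RefSeq (GRCm38.p6). Other genes of the pathway were named when at least 3-fold apart with a signal of at least 200, up to 6 each way, and for each retinoic acid gene reaching 200 the 3 genes of nearest pattern. *Rxra*, *Rxrb*, *Rxrg* and *Dhrs3* were outside this rule and were named after their values were seen. Some genes that this rule names are not reported here. The members and lists were chosen with earlier results of these data known. Alternatives were floors of 50 and 100, pseudocounts of 20 and 100, tied ranges set to their top, centring, a filter at 100, thresholds of 2-fold and 5-fold, and a correction for length and GC content by local regression. The scripts, tested on simulated data, used Python 3.11.15, pandas 2.3.3, numpy 2.4.6, statsmodels 0.14.6 and matplotlib 3.10.9.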

Additional observations from a re-analysis of the deposited data

Results flagged for a closer look

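*Cyp26b1* and *Rara* had HC to ENSC ratios of opposite sign in the organs. For *Cyp26b1* the log2 ratio was -0.76 in cochlear and 0.97 in vestibular cells. *Rara* had 0.27 on the cochlear side, against -2.34 on the vestibular one. With the length and GC correction the cochlear and vestibular values were -0.69 and 1.96 for *Cyp26b1* and 0.43 and -1.04 for *Rara*. The vestibular value of *Cyp26b1* was then past 3-fold and that of *Rara* under it. With 1 column per population the difference between the organs was not tested.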

How the results depend on the processing

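No paired analysis was possible because each population had 1 column, and leaving out a library was not possible either. No log2 ratio of the 9 genes that was past 3-fold as deposited changed sign under any alternative. Smaller ratios were not part of this check, and that of *Rarb* in cochlear HCs against ENSCs went from -0.06 to 0.01 with tied ranges at their top.

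In cochlear HCs against ENSCs 4 of the 9 were at least 3-fold lower, against 2 with a floor of 100 (4.41% of all genes), 1 with a pseudocount of 100 (3.17%) and 2 at a threshold of 5-fold (3.99%). With a floor of 50 (6.29%) or a pseudocount of 20 (6.2%) 3 were lower. In the vestibular system 1 was higher and 5 lower. The number higher was 0 with a pseudocount of 20 (10.2% of all genes), with one of 100 (5.24%) and at 5-fold (7.35%). The number lower was 3 with a pseudocount of 100 (5.70%) and at 5-fold (6.82%). It was 4 with a floor of 50 (10.6%) or 100 (7.58%) and with a pseudocount of 20 (10.1%). The filter at 100 (17.5% of the genes kept) and tied ranges at their top (12.8%) also gave 4, and a threshold of 2-fold gave 6 (24.5%). With the length and GC correction 3 were higher (14.7%) and 3 lower (10%). Between the ENSCs 6 were lower, against 3 with a pseudocount of 100 (2.82%) and at 5-fold (3.21%), and 5 with the filter at 100 (9.35% of the genes kept). With a floor of 50 (5.59%), a floor of 100 (4.03%), a pseudocount of 20 (5.32%) or the length and GC correction (5.31%) 4 were lower, and the number higher was 2 in place of 3 with a floor or pseudocount of 100 and at 5-fold.

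The median log2 ratio of the wider list in the cochlea (-0.14) was 0.00 with a floor of 50 or 100 and -0.34 with the filter at 100. In the vestibular system (-0.66) it was -0.47 and -0.34 with floors of 50 and 100, -0.54 and -0.34 with pseudocounts of 20 and 100, -0.76 with the filter and -0.39 with the length and GC correction. Between the HCs (0.00) it was -0.15 with tied ranges at their top. Between the ENSCs (-0.52) it was -0.15 and -0.06 with the floors, -0.29 with a pseudocount of 100 and -0.31 with the length and GC correction. A floor or pseudocount shrinks ratios of low genes by construction. The cause of the other shifts was not tested. Depth is unknown, and *Aldh1a2*, *Crabp1*, *Crabp2*, *Rarb* and *Rarg* each had a signal inside a tied range in at least 1 library.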
